A study of Caenorhabditis elegans with 2 samples.

Results

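The tlp-1 locus of Caenorhabditis elegans carried 4 of the 114 reproducible UNC-62 peaks of the genome, all within 9394 bp. The locus was defined as the gene tlp-1 (WBGene00006580) with 15000 bp to either side, from 13686208 to 13719082 on chromosome IV (WBcel235, the coordinates of ce11). It is 1 of 19973 protein-coding genes, and its 32875 bp make up 0.0328% of the nuclear genome. It was picked because of its peaks in these lists, so its peak numbers, positions, signals and ranks are given as descriptions with no test. Members are the peaks whose summit lies in the region, which were 4 of 114 in the list of reproducible peaks, cut by irreproducible discovery rate (IDR), 14 of 30000 in the list from pooled replicates, 10 of 15466 in replicate 1 and 11 of 24524 in replicate 2.

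UNC-62 belongs to the Meis family of homeodomain proteins, which bind DNA together with PBC and Hox proteins. The gene tlp-1 encodes a zinc-finger protein that acts in the asymmetric division of the T cell, a Wnt-dependent blast cell of the tail, and in shaping the male tail tip, a step that takes place during the L4 stage. The data are chromatin immunoprecipitation and sequencing (ChIP-seq) of whole L4 larvae of mixed sex. They come from 1 group with 2 biological replicates of strain OP602, a stable transgenic line that expresses UNC-62 fused to GFP-FLAG at its C terminus. All animals carried the tag, and whole larvae do not show in which cells a site was bound. There was no second condition, and the lists give no read depth, so no counting error can be attached to a signal value. Each list gives a signal value per peak on the authors' own scale, which is used here to rank peaks within that list. Its median was 39.7 in the IDR list, 11.4 in the pooled list, 8.13 in replicate 1 and 6.7 in replicate 2.

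The sequences of the reproducible peaks are shown first, since they hold the matches to which the results return. All are on the plus strand of WBcel235, from the RefSeq genome, in lower case, while tlp-1 is on the minus strand, so that the first base below is the one just before its annotated start. Capitals mark the Meis core TGACAG and the Hox-PBC sequence TGATNNAT in the stretch upstream of tlp-1, and TGATNNAT alone in the others, on either strand.
upstream of tlp-1, chrIV:13704083-13704382: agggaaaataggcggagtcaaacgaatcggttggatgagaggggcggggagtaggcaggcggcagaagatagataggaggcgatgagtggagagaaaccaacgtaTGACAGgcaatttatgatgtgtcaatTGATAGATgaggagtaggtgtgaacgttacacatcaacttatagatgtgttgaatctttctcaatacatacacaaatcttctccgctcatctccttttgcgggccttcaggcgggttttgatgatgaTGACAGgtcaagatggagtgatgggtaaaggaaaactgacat
peak of rank 114, chrIV:13699541-13699741: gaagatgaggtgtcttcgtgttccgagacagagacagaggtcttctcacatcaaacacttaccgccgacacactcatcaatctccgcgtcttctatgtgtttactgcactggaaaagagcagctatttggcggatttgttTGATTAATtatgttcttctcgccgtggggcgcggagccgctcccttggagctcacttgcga
part of the peak of rank 21, chrIV:13695856-13695885: agtgtgtcgatTGATTGATtgtcgtcctaa
peak of rank 94, chrIV:13694653-13694853: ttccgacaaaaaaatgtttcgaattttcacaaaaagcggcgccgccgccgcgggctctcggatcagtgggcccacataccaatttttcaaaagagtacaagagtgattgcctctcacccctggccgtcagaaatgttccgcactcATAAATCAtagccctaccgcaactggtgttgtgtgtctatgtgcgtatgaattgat

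Reproducible peaks lay at the start of tlp-1 and on its 3' side, around the neighbouring gene T23G4.127. Following the direction of tlp-1 transcription, the first had its summit at 13704147, 65 bp upstream of the tlp-1 start at 13704082. It ranked 64 among the IDR peaks, with a pooled signal value of 39.1. The second had its summit at 13699641, 1567 bp past the 3' end of tlp-1 and 938 bp upstream of the start of T23G4.127. It ranked 114, the last of the IDR list, with a signal value of 32.5. The third, at 13695941, was the strongest of the locus, with rank 21 and a signal value of 51.9. It lay in the 3' UTR of T23G4.127, 349 bp before that gene's annotated end. The fourth, at 13694753, ranked 94 with a signal value of 34.5 and was intergenic, 839 bp past the end of T23G4.127. Successive summits were 4506, 3700 and 1188 bp apart.

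**Figure D1:**
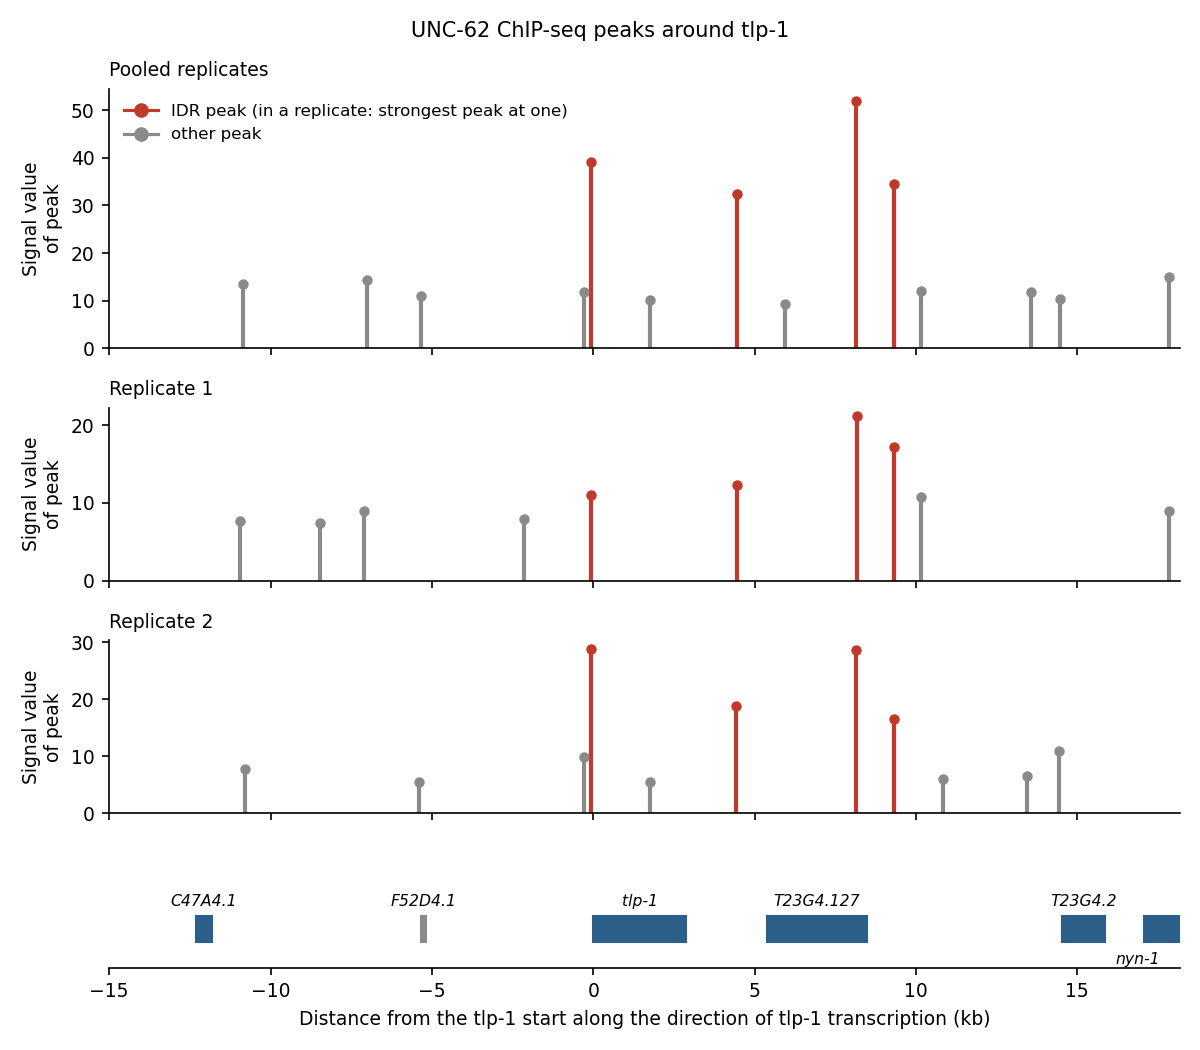
Signal value of every peak with its summit in the tlp-1 locus, in the pooled list and in each replicate's list, against distance from the tlp-1 start in kb, with positive values in the direction of transcription. Bars in blue are protein-coding genes and the bar in grey a non-coding RNA gene. The 4 IDR peaks (red) stand at the start of tlp-1 and on its 3' side, and no peak upstream of the second promoter summit exceeds a pooled signal value of 14.4.

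The remaining 10 pooled peaks of the locus were weak in the pooled list, and are called weak below. Their signal values there ran from 9.3 to 15.0 and their ranks from 5467 to 25774, a wide gap below the 4 reproducible peaks. In replicate 1 the weak peak at 13693915 had 10.8 and rank 2175, near the 11.0 and rank 1941 of the tlp-1 promoter peak. In replicate 2 the weak peak at 13689630 had 10.9 and rank 1860, below all 4 reproducible peaks, of which the lowest had 16.5 and rank 243. A pooled peak was in the IDR list in 0.38% of all cases, against these 4 of 14, which reflects how the locus was picked. The pooled list ends at a fixed 30000 peaks and includes background regions, so presence in it alone does not mark a reproducible peak. The cut of the IDR list fell just below the peak of rank 114, whose signal value was 32.524, while the pooled peak of rank 115, on the same chromosome, had 32.477 and was not in the list. The IDR list was thus the 114 strongest pooled peaks, and reproducible here means membership of it. Where its peaks overlapped a replicate peak, their ranks reached down to 14088 in replicate 1 and 3559 in replicate 2.

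Weak peaks lay on both sides of tlp-1. Beside the promoter peak, a second pooled summit at 13704355, 273 bp upstream of the start, had a signal value of 11.7 and rank 14334. The intervals of both promoter peaks overlapped by 168 bp. Inside tlp-1, a peak of rank 21813 with a signal value of 10.1 lay in the coding part of an exon, 1745 bp from the start. The 11823 bp between tlp-1 and the next protein-coding gene upstream, C47A4.1, held the other 3 upstream summits, at 5340, 7009 and 10868 bp from the tlp-1 start, with signal values of 10.9, 14.4 and 13.4. The first of these lay inside F52D4.1, a non-coding RNA gene of 159 bp. On the 3' side, 1 weak peak lay in an intron of T23G4.127 and 1 in an annotated piRNA gene. A further 2 lay within 1000 bp upstream of T23G4.2, and 1 lay in a coding exon of nyn-1, a gene named for its NYN ribonuclease domain. In the whole region, 5 of the 14 summits were in promoters, here the 1000 bp before a protein-coding start and the first 200 bp after it.

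The number of IDR peaks was also 4 with flanks of 10000 and 20000 bp, whereas pooled peaks numbered 10 and 18. The summit in nyn-1 lay 33 bp inside the region, with a signal value of 15.0. The next pooled summits lay 675 bp outside on the 3' side of tlp-1, with a signal value of 8.9, and 2793 bp outside on the other side, with 11.1. The nearest other IDR peak lay 2749858 bp beyond the region, at 10936350 on the same chromosome, with rank 38 and a signal value of 44.5. Toward the right end of the chromosome there was no further IDR peak, so these 4 were the last of the 14 on chromosome IV.

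Replicates ranked the 4 reproducible peaks differently. The strongest, in the 3' UTR of T23G4.127, had a signal value of 21.2 and rank 42 in replicate 1, and 28.6 and rank 37 in replicate 2. The peak past the end of T23G4.127 had 17.2 and rank 113 in replicate 1, and 16.5 and rank 243 in replicate 2. Both were thus within the strongest 1% of each list. The peak between the genes had 12.3 and rank 969 in replicate 1, and 18.8 and rank 154 in replicate 2. At the tlp-1 promoter, the signal value was 11.0 with rank 1941 in replicate 1, and 28.9 with rank 36 in replicate 2, where it was the strongest peak of the locus. These ranks correspond to the strongest 12.6% and 0.147% of the lists.

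Among the 4, the promoter peak of tlp-1 had the largest gap between the ranks of both replicates. Among the 114 strongest peaks of a single list, replicate 1 held 2 of the 4 (ranks 21 and 94) and replicate 2 also held 2 (ranks 21 and 64). Of the 113 IDR peaks with an overlapping peak in replicate 1, 8 had a weaker rank there. Of the 113 with one in replicate 2, 33 had a better rank there. Median ranks of the IDR peaks were 78 in replicate 1 and 66 in replicate 2. Summits of the replicates lay at most 30 bp from the pooled summit at each of the 4 peaks, but the pooled list was made from the same replicates. At the peak of rank 21 the summit was at 13695911 in replicate 1 and at 13695947 in replicate 2. At the peak past the end of T23G4.127 all 3 summits were at the same base. Since the lists differ in length, a difference in rank is not a measure of change in binding between replicates, and with 2 replicates there is no further check.

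**Figure D2:**
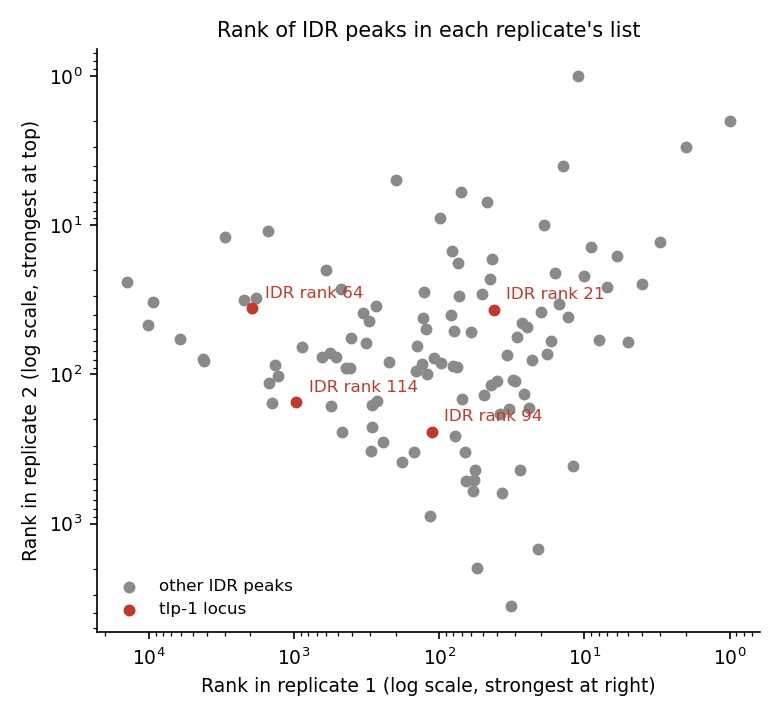
Rank of each IDR peak in replicate 1 (horizontal, log scale, strongest at right) and in replicate 2 (vertical, log scale, strongest at top), for peaks that overlap a peak of both lists by at least 1 bp. Points in red are the 4 peaks of the tlp-1 locus, labelled with their IDR rank. The promoter peak, rank 64, sits far left and high, at ranks 1941 and 36.

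An overlap of at least 1 bp with peaks of both replicates was found for 6 of the 14 pooled peaks, against 20.1% of all pooled peaks. The IDR peaks were 4 of those 6. Overlap was usual in the IDR list, where 113 of 114 peaks overlapped a peak of replicate 1 and 113 one of replicate 2, so it is not particular to the locus. Among the 10 weak peaks 2 were shared, a share near that of all pooled peaks. These were the second promoter summit and the peak 10868 bp upstream of tlp-1. At the former the overlap with replicate 1 came from the peak centred 208 bp away, whereas replicate 2 had its own peak at 13704370, with a signal value of 9.91 and rank 2962. Replicate 1 alone overlapped 3 pooled peaks, replicate 2 alone 4, and 1 pooled peak, in the intron of T23G4.127, had no peak in either list. Replicate 1 had 2 peaks in the region, both upstream of tlp-1, that matched no pooled peak, and replicate 2 had 1, on the 3' side.

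The locus stood out from other windows of 32875 bp in its strong peaks rather than in its number of peaks. In all, 3045 windows tiled over the nuclear chromosomes did not touch the locus. They held a median of 10 pooled peaks, from 0 to 26, against 14 at the locus, and 17.7% of them held as many or more. On chromosome IV the median was 9. With the 1000 strongest pooled peaks, the locus again had 4, the IDR peaks themselves, and 0.394% of windows (12) held as many or more. No tiled window elsewhere (0%) held 4 IDR peaks, and the highest number was 3. The locus was picked for this density, so its place among them is not a test.

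**Figure D3:**
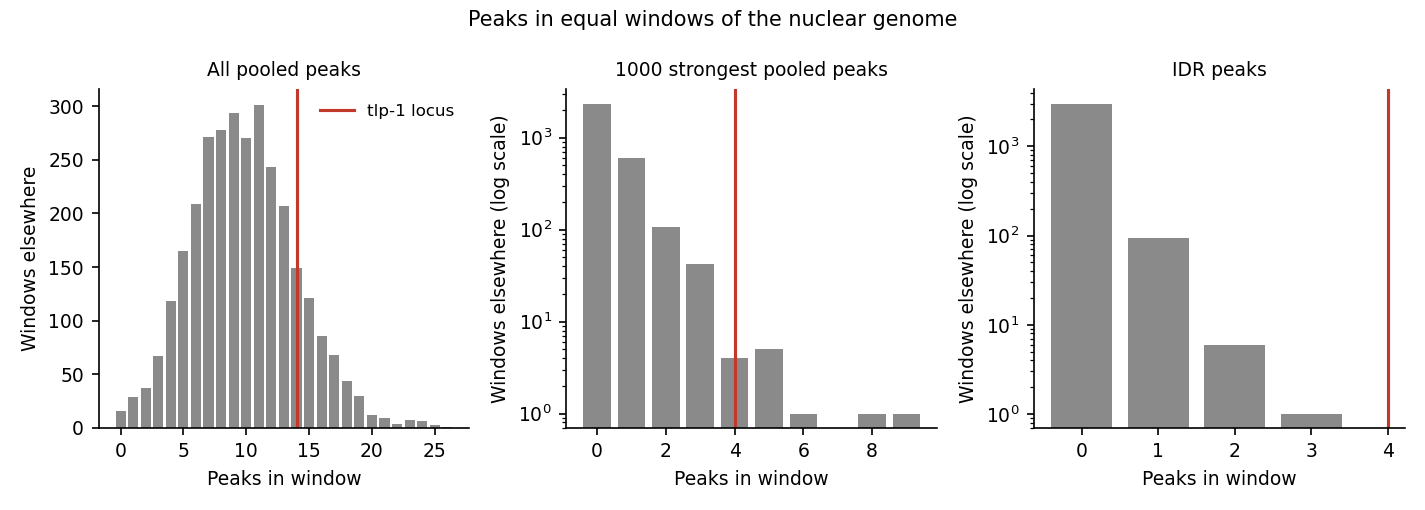
Number of windows (vertical axis, on a log scale in the centre and right panels) by the number of peaks they hold, for 3045 windows of 32875 bp outside the locus. The red line marks the tlp-1 locus, which has 14 pooled peaks, 4 of the 1000 strongest and 4 IDR peaks. It falls inside the distribution of all pooled peaks and past the highest window for IDR peaks, which held 3.

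The window grid can split a cluster, and it did so at unc-62, the gene of the immunoprecipitated protein. A window of the same length centred on unc-62 held 5 IDR peaks and 23 pooled peaks, of which 9 were among the 1000 strongest. Of 19938 windows centred on protein-coding genes away from the locus, this was the only one with 4 or more IDR peaks. The strain is a transgenic line for tagged UNC-62, and any effect of that on signal at unc-62 was not tested. Grouping of IDR peaks was uncommon, since 14 of 114 (12.3%) had another IDR summit within 5000 bp, and the 4 at tlp-1 are among those 14. The median distance to the nearest IDR summit was 207699 bp.

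The surroundings of tlp-1 were rich in genes for piRNAs, the short RNAs that guide Piwi proteins in the germline. The region overlapped 5 protein-coding genes (nyn-1, T23G4.2, T23G4.127, tlp-1 and C47A4.1, all on the minus strand). It held the start sites of all 5, against a median of 6 in other windows, of which 29.39% held fewer. Among the 379 other windows with 5 such starts, the median was 10 pooled peaks, and 61 held 14 or more. The region also overlapped 139 annotated piRNA genes, against a median of 2 per window on chromosome IV. Of all 3045 windows 20 held more, all of them among the 530 of chromosome IV (3.77% of those). The other 66 windows with at least 100 piRNA genes, all on chromosome IV, held from 3 to 22 pooled peaks, with a median of 8. They held 0 IDR peaks and together 13 of the 1000 strongest pooled peaks, against 4 of each at the tlp-1 locus. Having no IDR peak is not particular to them, since 2943 of all 3045 windows held none. Windows of chromosome IV held a mean of 0.0189 IDR peaks and 0.289 of the 1000 strongest. The subset of 66 windows was set after the values had been seen.

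Sequence features were not used to pick the locus. The Meis core TGACAG was searched on both strands, like each sequence below, within 100 bp of every summit. It was present at 3 of the 14 pooled summits, against 7.57% of all pooled windows and 13.2% of the 114 IDR windows. Of the 4 IDR windows at the locus, it was in that of the tlp-1 promoter alone, 41 bp from the summit, at 13704188. A second match at 13704341 lay 9 bp from the weaker promoter summit. Both appear in capitals in the upstream stretch shown above, 106 and 259 bp before the tlp-1 start. The third was beside the weak summit 7009 bp upstream, at 13711143. Having at least 2 TGACAG within 300 bp upstream of a start was found at 0.786% of protein-coding genes (157), and at least 1 at 11.6%. This stretch and count were not among the planned searches and fit the 2 matches at tlp-1, so these shares are no measure of rarity. Counting the whole peak interval, TGACAG was also in the peak of rank 21, with 2 matches at 131 and 152 bp from the summit, and in that of rank 114, with 1 at 142 bp, but not in that of rank 94.

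Over the whole region TGACAG occurred 23 times, against a median of 12 in other windows, and 98.4% of them held fewer. The 381 windows within 1 percentage point of the region's 32.7% GC had a median of 11 matches and 99.2% held fewer. Of the 23 matches, 7 lay upstream of the tlp-1 start, 2 in the gene and 14 on its 3' side, and 7 were inside pooled peaks, 4 of them inside IDR peaks. The numbers inside peaks were not set against the share of the region that the peaks cover. Matches were not evenly spread, with several bunched between 7.830 and 8.010 kb downstream of the tlp-1 start, which adds to the total. For TGATNNAT there were 39 matches against a median of 30, and 82.9% of windows held fewer. For ACACAC there were 25 against 14, with 87.4% holding fewer, or 91.6% among windows of like GC content. TGATAA had 38 against 34 (63.1% fewer) and GAGAGA 16 against 22 (23.8% fewer). TGATTGAC had 0 against 1, so that no window held fewer. These counts come from a single stretch of DNA and say nothing of which matches were bound.

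The Hox-PBC sequence TGATNNAT was within 100 bp of all 4 IDR summits at the locus. Over the 14 pooled windows it was present in 7, against 16.5% of all pooled windows and 18.4% of IDR windows. Its matches at the IDR peaks lay 40 to 67 bp from the summit, and those at weak peaks 9, 14, 15 and 42 bp from it. In the promoter stretch above it follows the first TGACAG, at 13704214. GAGAGA, which was present in 43% of all IDR windows and 13.6% of pooled windows, was at 1 of the 4 IDR summits, that of the tlp-1 promoter, and at none of the weak ones. ACACAC was at 3 of the 4 IDR summits, against 36% of IDR windows and 8.54% of pooled windows, and not in the promoter window. Among the weak windows, ACACAC was in that of rank 25774 alone, 18 bp from the summit. At the strongest peak, of rank 21, it occurred 4 times, 2 of them overlapping each other, and 1 match covered the summit. GATA-like TGATAA was in 0 of the 14 windows, against 18.6% of pooled windows, and the joint sequence TGATTGAC in 0 against 0.803%. Several of these sequences can overlap, and 4 or 14 windows from the same locus are not independent.

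**Figure D4:**
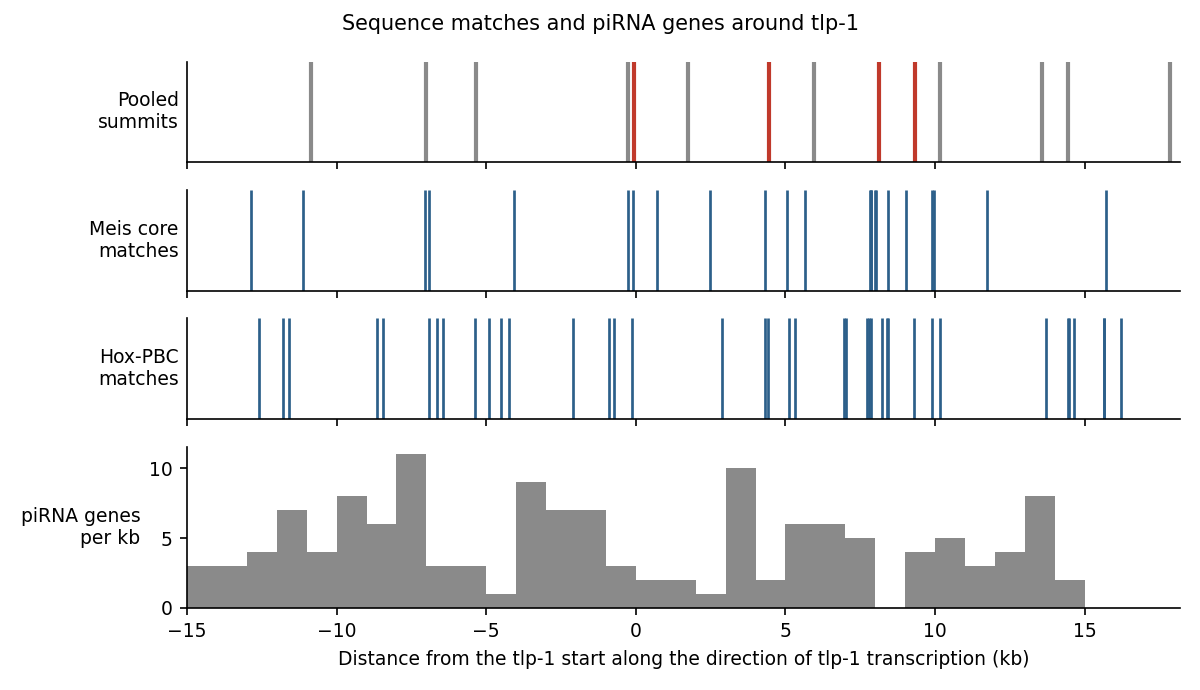
Positions across the tlp-1 locus of the 14 pooled summits (red, IDR peaks), of 23 Meis core matches and 39 Hox-PBC matches on either strand, and the number of annotated piRNA genes per kb. The horizontal axis is the distance from the tlp-1 start in kb, positive in the direction of transcription. Of the Meis core matches 14 lie on the 3' side of the gene, several of them bunched between 7.830 and 8.010 kb.

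Windows at the 4 reproducible summits were also richer in GC than most of the others at the locus. Their GC content ran from 48.3% to 50.2%, against 22.4% to 48.3% (median 35.5%) at the 10 weaker summits and 32.7% for the region as a whole. Over all lists the median was 45.3% for IDR windows and 35.8% for pooled windows, so strong peaks at the locus and elsewhere shared this feature. Its part in the signal was not tested.

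For comparison, a list of 30 genes was chosen by known roles in the T cell lineage, the tail and Wnt asymmetry, of which 29 matched the annotation. It also holds Hox genes such as lin-39, so not every member is a T cell or tail gene. Around each start a window was taken that began 2000 bp before it and ended 500 bp after it. A pooled summit among the 1000 strongest lay in this window in 3 of the 29, against 3.75% of all protein-coding genes. These were egl-27, a relative of MTA chromatin factors needed for T cell polarity, the Hox gene lin-39 and the PBC gene ceh-20, whose product is a partner of Meis proteins. At egl-27 the summit reached a signal value of 35.3, pooled rank 84, was thus in the IDR list, and ranked 294 in replicate 1 and 324 in replicate 2. That of lin-39, 66 bp upstream of the start, reached 24.8 (pooled rank 376), with replicate ranks 6777 and 215. That of ceh-20, 724 bp upstream of the start, reached 24 (pooled rank 447), with replicate ranks 3102 and 449. With the 1000 strongest peaks of replicate 2 alone the same 3 genes were counted, and with those of replicate 1 alone only egl-27. The tlp-1 promoter peak, which is not counted in the list, had a better rank than these in the pooled list (64) and in replicate 2 (36), while in replicate 1 egl-27 had the better rank (294 against 1941).

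Most of the list carried weak peaks or none. In all, 24 of the 29 genes had a pooled summit in this window, against 60.4% of all protein-coding genes, and the median rank of the strongest was 8744, against 11589 for all genes with one. The Wnt gene lin-44 and its Frizzled receptor gene lin-17, which set T cell polarity, had ranks of 7983 and 10742. The Meis-related gene psa-3, which acts in the T cell with ceh-20, had 1 pooled summit, of rank 15281 and signal value 11.4. The Hox genes nob-1 and php-3 had none. The TCF gene pop-1 ranked 4942, and the beta-catenin-related gene sys-1 had no summit. Among genes known to act in the male tail tip, the doublesex-related dmd-3 and mab-3 had rank 24512 and no summit. The gene lin-41, a regulator of developmental timing there, ranked 1105, just outside the 1000. Within 15000 bp of the gene, the distance used for tlp-1, 8 of the 29 genes had a summit among the 1000 strongest, near the 25.5% of all protein-coding genes. At that distance egl-27 had 2 IDR peaks and bar-1 had 1, and no other listed gene had any.

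**Figure D5:**
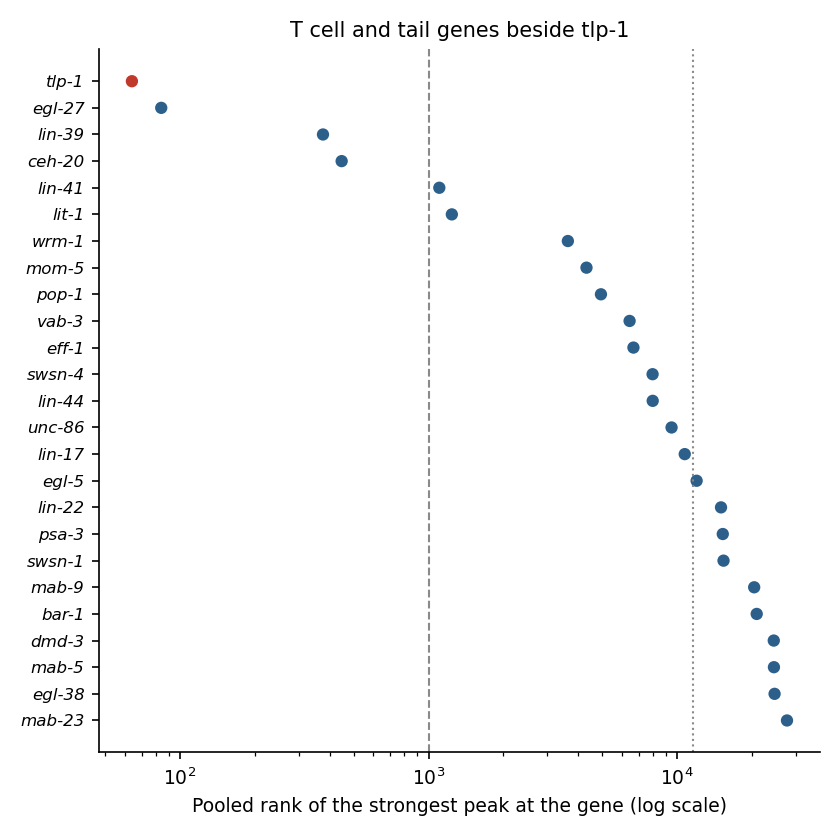
Pooled rank of the strongest peak in the window around a start, 2000 bp before to 500 bp after it (log scale, strongest at left) for tlp-1 (red) and the 24 genes of the T cell and tail list that have one (blue). The dashed line is rank 1000 and the dotted line the median of all protein-coding genes with a peak, 11589. The genes egl-27, lin-39 and ceh-20 lie left of the dashed line, at 84, 376 and 447.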

How the data were processed

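UNC-62 ChIP-seq peak lists from 2 biological replicates of 1 group were analysed. Per the deposited readme texts, the authors made 1 list from each replicate and 1 from both pooled, each against a control alignment not analysed here, and derived the IDR list from them. The aligner was not given in the sources used here, nor were the caller and IDR cutoff. For ranks, counts and description the deposited signal value was used. The deposited q-value column falls below 0 at 29433 of 30000 pooled peaks and was treated as a score. Only ce11 lists were used, since no ce10 genome was at hand. Peaks were 376 bp wide, or 390 bp in replicate 2.

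Summits (1-based) were annotated with Ensembl release 115 genes of WBcel235, and sequences read from the RefSeq genome of that build. The locus, lists and sequences were chosen with earlier results of these data known, so no test was made. Genes named are tlp-1, protein-coding genes of the region, non-coding genes there by type and count (F52D4.1 was named after its values were seen), listed genes with a peak among the 1000 strongest, and the leading genes of other peak-rich windows. Further listed genes (lin-44, lin-17, psa-3, nob-1, php-3, pop-1, sys-1, dmd-3, mab-3, lin-41 and bar-1) were named after their values were seen. Window counts and sequence matching were tested on simulated data and recovered 200 of 200 planted cases each. Scripts ran under Python 3.11.15 with pandas 2.3.3, NumPy 2.4.6 and matplotlib 3.10.9.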

Additional observations from a re-analysis of the deposited data

How the results depend on the processing

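The number of pooled peaks at the locus was 10 with flanks of 10000 bp, 18 with 20000 bp and 14 counting any overlap, from 10 to 11 with either replicate left out, and 4 among the 1000 strongest, an alternative added after seeing the data. The 4 IDR peaks were the same in number with either flank, but 1 lay among IDR peaks at or above that list's median signal value, and 2 remained when either replicate was left out and the 114 strongest peaks of the other were taken. In replicate 1 these were the peaks of ranks 21 and 94, and in replicate 2 those of ranks 21 and 64. The share of windows with fewer pooled peaks was 82.27%, between 81.14% and 86.42% with other sets of windows, 99.61% with the 1000 strongest peaks, and from 76.22% to 93.5% with either replicate left out. For IDR peaks it was 100%, with 99.99% around genes, 98.23% in the stricter list and 98.18% in windows starting at each other IDR summit, the last added after seeing the data. Peaks shared by both replicates numbered 5 with overlap by at least 50% of the peak and with summits within 100 bp. TGACAG was in 2 windows at 50 bp and in 5 whole peaks. Listed genes with a strong peak numbered 8 within 15000 bp and 3 by nearest start, and from 1 to 3 with either replicate left out, with egl-27 the gene left without replicate 2. The strongest peak ranked 42 in replicate 1 and 37 in replicate 2, and by the score column it shared rank 1 with 22 others. No paired analysis was possible because there was 1 group. Depth is unknown, so no lower limit on detectable binding can be given.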

Other observations

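The 3 tiled windows with the most pooled peaks held no IDR peak, against 4 at the tlp-1 locus. They are the highest on 1 grid, since a window held up to 34 pooled peaks with the grid shifted or with windows centred on genes. The window of chromosome IV from 10322751 to 10355625 held 26 pooled peaks, and its strongest, of rank 1816, lay nearest to Y43C5B.3. A window of chromosome I from 10750126 to 10783000 and one of chromosome X from 6739376 to 6772250 held 25 each. Their strongest peaks lay nearest to daf-16, a FOXO factor of insulin signalling (rank 600, 5726 bp upstream of its nearest start), and to mdl-1, a Mad-like bHLH factor (rank 194, 607 bp upstream of its start).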
